A study of Ovis aries with 26 samples.

Results

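Red cell genes were followed through the fetal and newborn sheep pancreas by 3′ single-cell RNA-seq on the 10x platform, with counts for 24478 genes. The 7 genes described here are LOC101106199, LOC101108797, LOC101105437 and HBM, which are counted here as 4 globin genes, and AHSP, ALAS2 and TMCC2. They were chosen by their high levels in the red cell barcodes of these same libraries, so that height is given as a description only. The 26 libraries came from 23 animals of the American Romney breed. WT animals were 2 male fetuses at 80 days of gestation, 3 at 120 days (2 male, 1 female) and 4 lambs at term (3 male, 1 female). Also sampled at 80 days were 2 male HZ fetuses, which carry 1 WT CFTR allele and 1 targeted in exon 11, and which were counted with WT as the study did. CFTR-/- animals (CF, exon 2 of CFTR targeted) were 3 male fetuses at 80 days, 6 at 120 days (4 male, 2 female) and 3 lambs at term (2 female, 1 male). By the study's account the CF animals at 80 days, replicates 1 to 4 at 120 days and replicate 3 at term were clones of 1 male fibroblast line, and the others were bred naturally. Cloning and genotype can therefore not be told apart at 80 days, when all animals were male, and cloning and sex cannot be told apart within CF at 120 days and term. Of the 4 WT and HZ fetuses at 80 days 3 were triplets. The 3 CF fetuses of 80 days came from 2 recipient ewes and the cloned ones of 120 days from 3. The naturally bred CF fetuses of 120 days were twins. In the study's list 2 of the 3 WT fetuses at 120 days carry 1 animal number with different suffixes. The tests took all animals as independent. All cell suspensions had passed a red blood cell lysis step, so the levels below are those of red cells that were left after it. How much the lysis removed in each animal was not tested.

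Hemoglobin is a tetramer of α-type and β-type globin chains, each holding a heme. Fetal mammals replace one set of chains by another during gestation and after birth, and most red cells of late gestation have lost their nucleus. AHSP is the chaperone of free α-globin. ALAS2 is the first and rate-limiting enzyme of heme synthesis in erythroid cells, and HBM encodes the mu globin of the α-globin cluster. TMCC2 encodes a transmembrane protein with coiled-coil domains. In the RefSeq table of another sheep assembly, used for names and neighbours only, LOC101106199 lies in the stretch that also holds HBE1, HBB and LOC100134870 (synonym HBBC), and LOC101108797 lies beside HBM and overlaps the gene model of HBQ1. LOC101105437 has no entry in that table, so its product is not named here, and it was counted with the globins because its UMIs lay in the same barcodes. Globin genes have near-identical copies, between which the counting could split or lose reads, so the level of a single globin row, and of HBQ1, is uncertain. Sequences of these genes were not analysed here. Only 1 tag is counted per molecule at the 3′ end, so the CPM of different genes were set side by side without a length correction.

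Of 109501 deposited barcodes, 79510 were kept (over 200 genes, below 6000 genes and less than 25% of UMIs from MT- genes). The libraries held 7841217 to 171256169 UMIs and 943 to 9543 kept barcodes per animal. In 225 kept barcodes there were at least 5 AHSP UMIs that also reached at least 1000 CPM (UMIs of a gene per 1000000 UMIs), and these are called AHSP-high. A further 174 kept barcodes drew at least 5% of their UMIs from the 4 globin genes without reaching that AHSP level and are called globin-rich, a class set after the values were seen. The other 79111 are called remaining barcodes. At the AHSP threshold 2 barcodes lay exactly at 5 UMIs, 17 had 3 or 4 UMIs, and 53 had 5 or more UMIs but were below 1000 CPM. Between libraries 1653 of the kept barcodes (2.08%) had a sequence that was also seen in another library, at most 12 per pair of libraries, and 0 of the 399 AHSP-high and globin-rich barcodes were of those classes in 2 libraries.

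The AHSP-high barcodes carried the defining genes of red cells. Counted per 1000000 UMIs outside the 4 globin genes (non-globin CPM), the summed level of 11 erythroid markers (GATA1, KLF1, SLC4A1, EPB42, RHAG, HEMGN, TSPO2, GFI1B, EPOR, NFE2 and TFRC) was 4233 to 12629 over 11 animals, with UMIs for 10 of the 11, TSPO2 being at 0. In the remaining barcodes it was 9.78 to 40.3 over 23 animals. Marker lists of acinar, duct, endocrine, stromal, endothelial, immune and Schwann cells had medians of 0 to 56.8 non-globin CPM in the same AHSP-high barcodes, although the stromal list reached 3148 and the immune list 1222 in single animals. A median AHSP-high barcode held 14709 UMIs from only 577 genes, and 88.1% of its UMIs came from the 4 globin genes.

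**Figure D1:**
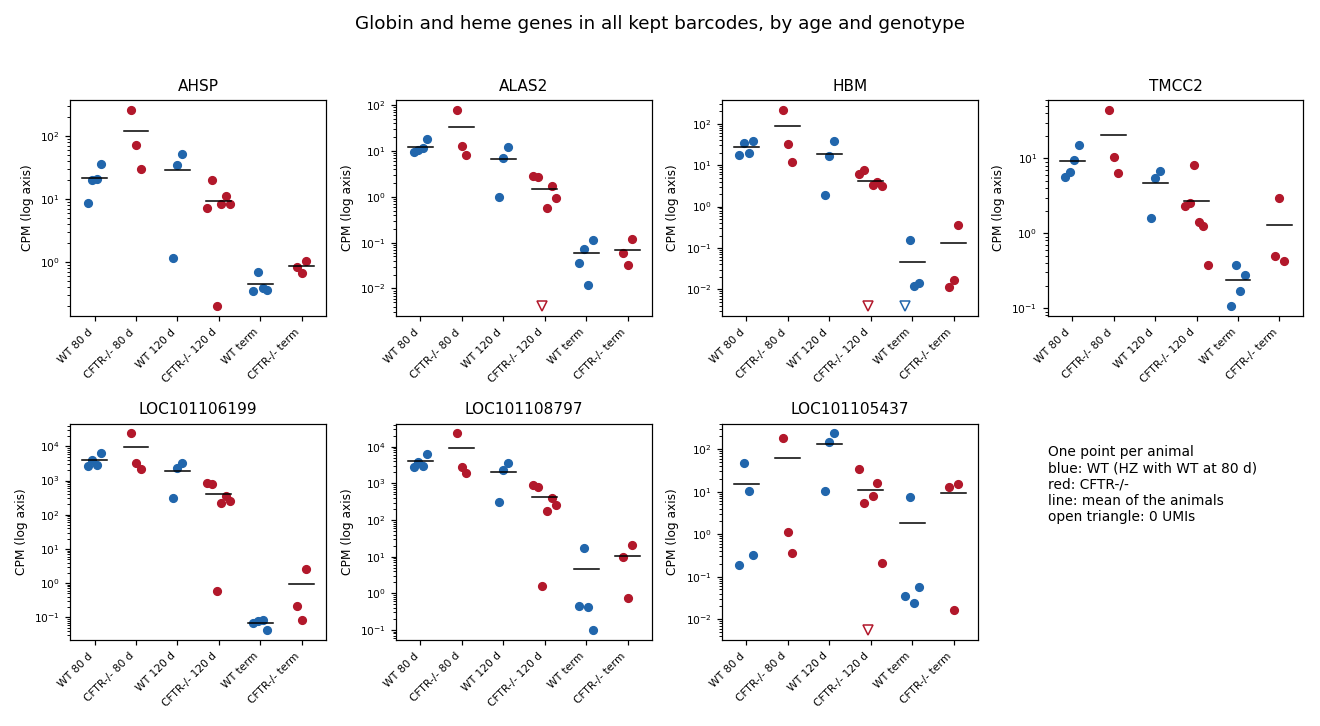
Level of each of the 7 genes per animal in all kept barcodes (y axis, CPM on a log scale, with values of 0 drawn at the lower edge) by group (x axis, 80 days, 120 days and term, WT with HZ beside CF); each point is 1 animal and each bar the group mean. The 2 LOC genes LOC101106199 and LOC101108797 reach 1900 CPM or more at 80 days and are at or below 20.9 CPM in all 7 term animals.

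LOC101106199, the row in the stretch of HBB, gave the widest range of the 7 genes. In all kept barcodes its level was 2752 CPM in HZ replicate 2, 4103 in HZ replicate 4, 2802 in WT replicate 1 and 6594 in WT replicate 3 at 80 days (4063 ± 1800, SD, n = 4). The CF fetuses of that age stood at 24070, 3208 and 2170 CPM (9816 ± 12355, n = 3), so that replicate 1 set the group mean and the other 2 lay among the WT and HZ values. At 120 days the WT fetuses had 318, 2260 and 3318 CPM (1965 ± 1521, n = 3). The 6 CF fetuses ranged from 0.598 to 834 CPM with a mean of 413 ± 339, below the 2 higher WT fetuses and on both sides of the lowest. At term nothing but traces was left, 0.0421 to 0.0851 CPM in 4 WT lambs and 0.0823, 0.221 and 2.54 CPM in CF lambs. Those WT values rest on 2, 13, 7 and 3 UMIs among 28494098 to 162370138 UMIs per lamb.

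LOC101108797, the row beside HBM, had group means close to those of LOC101106199 at 80 and 120 days. It averaged 4003 ± 1649 CPM in WT and HZ at 80 days (n = 4), 9297 ± 12044 CPM in CF (n = 3), 2084 ± 1655 CPM in WT at 120 days (n = 3) and 420 ± 357 CPM in CF (n = 6). At term the row parted from LOC101106199. WT replicate 2 still had 17.5 CPM beside 0.0983 to 0.456 CPM in the other 3 WT lambs, and 1 barcode held 1342 of its 2837 UMIs. The CF lambs had 9.69, 0.758 and 20.9 CPM. The values of CF replicates 1 and 3 came mostly from 1 barcode each, which held 1273 of the 1525 UMIs in library 1B and 1303 of the 1406 in library 3B. Their other libraries, 1A and 3A, were at 1.72 and 0.412 CPM.

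LOC101105437 followed another course. Its level was 0.192, 48.0, 10.5 and 0.320 CPM in HZ replicates 2 and 4 and WT replicates 1 and 3 at 80 days, and 188, 1.13 and 0.362 CPM in the CF fetuses. In WT at 120 days it stood at 10.4, 151 and 236 CPM (133 ± 114, n = 3), higher on average than at 80 days but with overlapping animals. CF fetuses at 120 days had 0 to 35.0 CPM (10.7 ± 13.3, n = 6). At term WT replicate 2 had 7.35 CPM beside a median of 0.0351 CPM in the other WT lambs. Of CF replicates 1 and 3 at term, libraries 1B and 3B were at 24.7 and 29.6 CPM. In each 1 barcode held most of the UMIs, 2153 of 2213 and 1001 of 1003. Libraries 1A and 3A were at 0.0242 and 0.0295 CPM.

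HBM, the mu globin gene, stayed far below the 2 abundant rows. It reached 27.4 ± 10.2 CPM at 80 days (n = 4) and 18.9 ± 18.4 CPM at 120 days (n = 3) in WT, and 220, 32.1 and 12.1 CPM in the CF fetuses at 80 days. At term 3 of 4 WT lambs had at most 1 HBM UMI each. Of the other globin genes named in the files, HBQ1 averaged 3.66 ± 1.19 CPM and HBZ, the embryonic zeta chain, 0.254 ± 0.140 CPM in WT and HZ at 80 days, and both were lowest at term in WT (0.632 ± 0.443 and 0.0169 ± 0.0209 CPM, n = 4). Over 9 animals with at least 10 AHSP-high barcodes, HBQ1 had 467 UMIs in those barcodes and 1198 in remaining ones. HBZ had 117 and 35.

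AHSP, the α-globin chaperone, was at 8.61, 20.2, 20.8 and 36.2 CPM in HZ replicates 2 and 4 and WT replicates 1 and 3 at 80 days. The CF fetuses had 261, 71.3 and 29.6 CPM (121 ± 124, n = 3), the lowest of which lay below the highest WT fetus. At 120 days it was 1.18, 34.8 and 51.5 CPM in WT and 0.199 to 20.0 CPM in CF, and at term 0.351 to 0.708 CPM in WT and 0.675 to 1.05 CPM in CF.

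ALAS2, the heme enzyme, followed AHSP at a lower level, with 12.3 ± 3.91 CPM in WT and HZ at 80 days (n = 4), 6.73 ± 5.54 CPM in WT at 120 days (n = 3) and 0.0584 ± 0.0441 CPM in WT at term (n = 4). Its CF means were 33.7 ± 40.0, 1.47 ± 1.16 and 0.0697 ± 0.0437 CPM at the same ages (n = 3, 6 and 3). TMCC2 stood at 0.494, 3.00 and 0.427 CPM in the CF lambs and at 0.105 to 0.382 CPM in the WT lambs. Its level was 9.23 ± 4.21 CPM in WT and HZ at 80 days, 4.65 ± 2.72 CPM in WT at 120 days and 0.235 ± 0.122 CPM in WT at term. In CF it was 20.5 ± 21.2, 2.67 ± 2.80 and 1.31 ± 1.47 CPM, with 8.17 CPM in replicate 3 at 120 days, the library with the fewest UMIs, and 3.00 CPM in replicate 2 at term. In such summed levels, fewer red cells and less RNA per red cell cannot be told apart.

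The fall between 120 days and term in WT was the change that most of the genes shared. In a quasi-likelihood test (edgeR) on UMIs summed per animal, 6 of the 7 passed the threshold (adjusted p under 0.05 over all 18084 genes tested), all lower at term, where 7.29% of all genes were called and 2.78% were lower. LOC101106199 fell by 14.33 on the log2 scale (SE 1.95, adjusted p = 0.000738 by edgeR), HBM (-7.69), LOC101108797 (-8.39), ALAS2 (-6.31), AHSP (-5.56) and TMCC2 (-3.85) were lower too, the adjusted p of these 5 lying between 0.00275 and 0.0139. The size fitted for LOC101106199 depends on the few UMIs at term. LOC101105437 was lower in all 4 lambs than in all 3 fetuses but did not pass (log2 difference -5.66, edgeR adjusted p = 0.14). All 7 genes had no overlap between the 4 lambs and the 3 fetuses, against 12.2% of all genes whose lambs were all lower. With a fit of these 2 groups alone, 2 of the 7 and 36 of all genes were called, beside 1318. Without WT replicate 2 at term the log2 difference was -12.37 for LOC101108797 and -10.10 for HBM.

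In CF animals calls were made at both steps of age, 3 of the 7 genes at each, beside 0 and 6 in WT. From 80 to 120 days 3 of 7 genes were called lower, where 2.8% of all genes were called and 1.79% were lower. With a fit of these 2 groups alone, 0 of the 7 and 0 of all genes were called by edgeR. The 3 genes were ALAS2 (log2 difference -3.56, SE 0.77, edgeR adjusted p = 0.0205), TMCC2 (-2.66, adjusted p = 0.0361) and HBM (-3.53, adjusted p = 0.0439). LOC101106199 (-3.72, adjusted p = 0.0653) and AHSP (-2.78, adjusted p = 0.0694) did not pass, although their CF fetuses at 120 days were all below those at 80 days, as held for 5 of the 7 genes and 18.6% of all genes. Without CF replicate 1 at 80 days 0 of 7 were called by edgeR, but the calls over all genes fell too, from 506 to 39. Leaving out CF replicate 2, 4, 5 or 6 at 120 days left 1 call each among the 7 (182 to 380 over all genes), and without HZ animals it was 1 (161 over all genes). Leaving out the shallow CF replicate 3 at 120 days raised the count to 5 and that over all genes to 2560.

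From 120 days to term 3 of 7 genes were lower in CF lambs, where 6.6% of all genes were called and 2.39% were lower. With a fit of these 2 groups alone, 0 of the 7 and 267 of all genes were called by edgeR. LOC101106199 fell by 8.93 (SE 1.79, edgeR adjusted p = 0.00537), and HBM (-5.23, adjusted p = 0.0240) and ALAS2 (-4.41, adjusted p = 0.0190) were lower too. In the CF lambs these genes had 215, 28 and 20 UMIs. An AHSP-high barcode of CF replicate 3 held 168, 24 and 7 of them, and a globin-rich one of CF replicate 1 held 7 of ALAS2. AHSP (-3.42, adjusted p = 0.0543) and LOC101108797 (-5.33, adjusted p = 0.0842) missed the threshold. TMCC2 (-0.49, adjusted p = 0.711) and LOC101105437 (-0.21, adjusted p = 0.961) had intervals of -1.95 to 0.97 and -4.18 to 3.75. Without CF replicate 3 at 120 days 5 of the 7 and 2100 of all genes were called, beside 1193 with it, and without CF replicate 1 or 2 at term 1 of the 7 and 516 or 507 of all genes. The age comparisons within a genotype share the 120-day animals.

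Between WT and HZ at 80 days and WT at 120 days none of the 7 genes was called by edgeR, where 0.0774% of all genes were called. At an unadjusted p under 0.05 it was also 0 of 7 (11.6% of all genes), and by DESeq2 0 of 7 (1.85%). The log2 difference of LOC101106199 was -0.16 (95% interval -2.67 to 2.35) and that of AHSP 1.31 (-0.63 to 3.24). LOC101105437 had the largest difference (4.05, interval -0.51 to 8.61), with means of 14.8 and 133 CPM. edgeR's scaling moves these age differences. Against a scaling by total UMIs it shifted every gene by 0.94 from 80 to 120 days and by 0.29 from 120 days to term in WT, and by 0.72 and 0.27 in CF, so differences are relative to that shift.

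No gene of the 7 was called between CF and WT at any age. At 80 days 0 of 7 were called by edgeR, where 0.0221% of all genes were called, and 0 by DESeq2 (0.713% of all genes). An unadjusted p under 0.05 was found for 1 of 7 genes and for 7.16% of all genes. AHSP had a log2 difference of 2.26 (interval 0.29 to 4.22, edgeR adjusted p = 0.613) and LOC101106199 of 1.07 (-1.42 to 3.55). Without CF replicate 1 the log2 difference was below 0 for 6 of the 7 genes, -0.97 for LOC101106199, -0.60 for ALAS2 and -0.67 for HBM among them.

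At 120 days the log2 difference was below 0 for all 7 genes, with 0 called by edgeR, where 0.0387% of all genes were called, and 0 by DESeq2 (0.249% of all genes). An unadjusted p under 0.05 was found for 5 of 7 genes and for 5.67% of all genes. ALAS2 had a log2 difference of -2.31 (interval -3.89 to -0.73, edgeR adjusted p = 0.717) and LOC101106199 of -2.49 (-4.72 to -0.26, adjusted p = 0.872). This CF group includes the naturally bred fetuses for which the study names varying red cell removal. Its part in these differences was not tested. At term 0 of 7 were called by edgeR, where 0.946% of all genes were called, and 0 by DESeq2 (6.9% of all genes). At an unadjusted p under 0.05 it was 1 of 7 genes and 20.6% of all genes. That gene was TMCC2, higher in all 3 CF lambs than in all 4 WT lambs as were 19.9% of all genes in either direction (log2 difference 1.68, interval 0.09 to 3.28, edgeR adjusted p = 0.217). Without CF replicate 2 its difference was 0.42. Between males alone it was -0.23, but there CF replicate 3, a clone, was the only CF lamb. The CPM of that lamb was above that of all 4 WT lambs. The difference of the CF effect between ages was called for 0 of 7 genes and 0 genes in all by edgeR, with 5 of 7 at an unadjusted p under 0.05 for 120 against 80 days (2.73% of all genes) and 2 for term against 120 days (6.98%). Scaling shifted the CF differences by -0.32, -0.53 and -0.57 at 80 days, 120 days and term.

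Other genes of the same pathways were read in the same fits. From 120 days to term in WT, where 2.78% of all genes were lower, 2 of 7 tested erythroid factors were lower, GATA1 (-3.70) and KLF1 (-4.52), and 5 of 11 red cell membrane genes, among them the anion exchanger SLC4A1 (-8.23), the Rh-associated RHAG (-6.46) and the blood group carrier ERMAP (-4.67). Of 6 tested late red cell genes 2 were lower, HEMGN (-6.44) and TRIM58 (-6.29), the latter a ubiquitin ligase of maturing red cells. Of 7 heme synthesis genes beside ALAS2 and of 15 genes of heme and iron transport and breakdown 0 were called by edgeR in either direction, with medians of -0.05 and 0.16 beside -0.04 over all genes. In 9 fetuses with at least 10 AHSP-high barcodes, all of these genes had more UMIs in remaining than in AHSP-high barcodes. ALAD had 19999 beside 830 and FECH 4307 beside 1003, so these sums cannot show their course in red cells. The medians of the factors, the membrane genes and the late genes were -2.12, -2.31 and -0.61. In the same fetuses some genes of these lists also had more UMIs in remaining barcodes, LMO2, EPB41 and PRDX2 among them. Others, such as KLF1, SLC4A1 and HEMGN, had fewer there. These medians therefore do not show the course in red cells alone. From 80 to 120 days in CF, where 1.79% of all genes were lower, the called genes were GATA1 (-2.92), KLF1 (-2.66), the blood group antigen KEL (-2.84) and TRIM58 (-3.40). From 120 days to term in CF, where 2.39% of all genes were lower, they were KLF1 (-3.57), SLC4A1 (-3.93), RHAG (-4.53) and HEMGN (-6.10). The medians of the factors, the membrane genes and the late genes at that step were -0.53, -0.14 and -0.52 beside -0.07 over all genes. Between CF and WT at each age, and between 80 and 120 days in WT, 0 genes of these lists were called by edgeR.

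**Figure D2:**
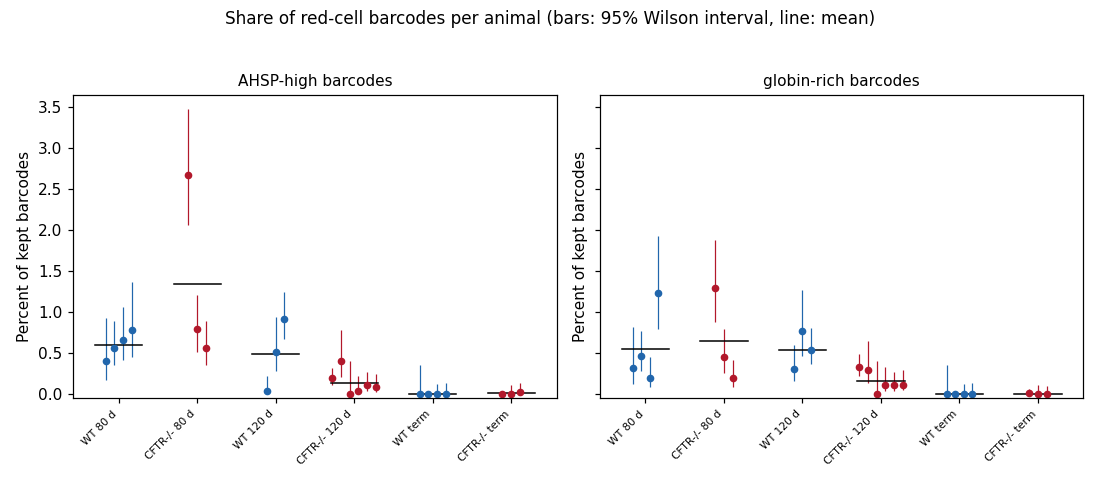
Share of kept barcodes that were AHSP-high and globin-rich (y axes, percent) per animal (points) and group mean (bars) by age and genotype (x axis); vertical lines are 95% Wilson intervals, which cover counting error only. CF replicate 1 at 80 days lies highest at 2.68% AHSP-high, and WT lambs are at 0.

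The summed levels largely came from few barcodes. AHSP-high barcodes held 62.7% of the LOC101106199 UMIs in WT and HZ at 80 days, globin-rich barcodes 36.6% and remaining barcodes 0.752%, and the remaining share was 0.686 to 1.97% in the CF fetuses of 80 days and both groups of 120 days. AHSP was more tightly held, with 89.5 to 96.9% of its UMIs in AHSP-high barcodes in those groups, although AHSP sets that class. TMCC2 was looser, with 11.6 to 14.4% of its UMIs in remaining barcodes in 3 of these groups and 44.5% in CF at 120 days.

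The share of kept barcodes that were AHSP-high, which leaves out globin-rich barcodes and the red cells lost to lysis, was 0.600 ± 0.162% in WT and HZ at 80 days (n = 4), 1.34 ± 1.16% in CF at 80 days (n = 3), 0.488 ± 0.438% in WT (n = 3) and 0.135 ± 0.143% in CF at 120 days (n = 6). At term 1 such barcode was found among 7 lambs. The single animals of CF at 80 days had 2.68, 0.789 and 0.566%, and those of WT at 120 days 0.0382, 0.514 and 0.912%, so the spread within a group was as wide as the steps between groups. CF replicate 3 at 120 days had 0 of 943 barcodes, which allows a share of up to 0.318%, and the WT lambs had 0 of 1082, 9543, 3247 and 3009, which allow up to 0.277, 0.0314, 0.0924 and 0.0997%. These limits take 3 barcodes as the most that a count of 0 allows. The two-sided Wilson intervals in the plot of shares reach higher, to 0.406% in that CF fetus and to 0.354, 0.0402, 0.118 and 0.128% in the WT lambs.

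Exact two-sided permutation tests over animals, adjusted over the 7 comparisons, were made on this share, but with these group sizes no comparison could pass. Even with each of the 7 at its smallest possible p, the lowest adjusted p would be 0.0556. The groups did not overlap from 80 to 120 days in CF (difference -1.21 percentage points, exact p = 0.0238, the smallest possible, adjusted p = 0.167), nor from 120 days to term in WT (-0.488, exact p = 0.0571, also the smallest possible, adjusted p = 0.2). Between CF and WT the differences were 0.743 at 80 days (exact p = 0.229, adjusted p = 0.32) and -0.353 at 120 days (exact p = 0.143, adjusted p = 0.25). Globin-rich barcodes had group means of 0.553 ± 0.469, 0.643 ± 0.575, 0.538 ± 0.233 and 0.158 ± 0.126% in the same order, from 42, 44, 46 and 41 barcodes, and made up 0 to 0.0107% of barcodes in single lambs at term. Beside these the filters on barcodes dropped 30, 54, 93 and 108 AHSP-high or globin-rich ones in the 4 groups, so the shares depend on those filters.

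**Figure D3:**
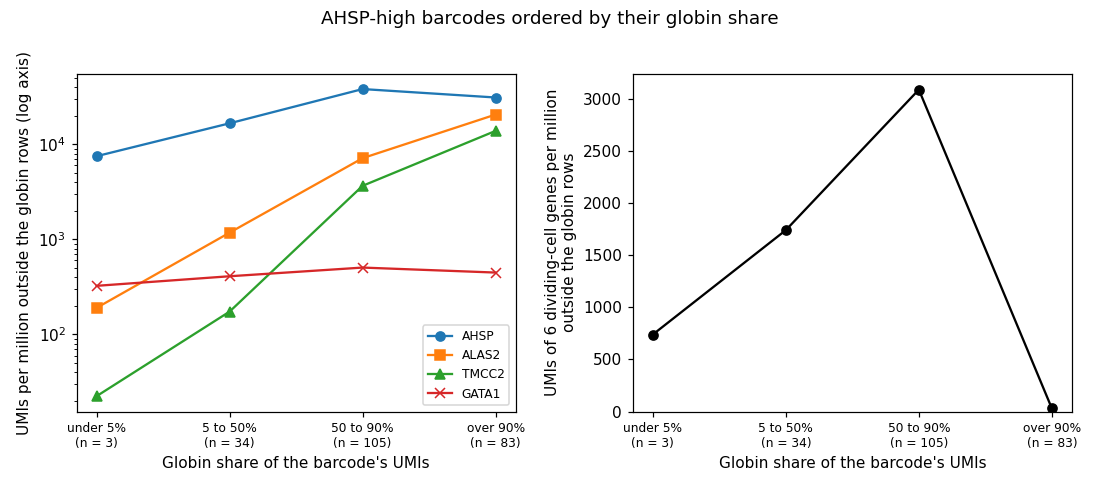
AHSP-high barcodes in 4 bins of their globin share (x axes, percent of UMIs), with the level of AHSP, ALAS2, TMCC2 and GATA1 (left, log scale) and of 6 cell division genes (right) in non-globin CPM (y axes, per 1000000 UMIs outside the globin genes), summed over the barcodes of a bin. ALAS2 and TMCC2 are highest where globins exceed 90% of UMIs, where the division genes are near 0.

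Within the AHSP-high barcodes the level of ALAS2 and TMCC2 differed with the globin share. Barcodes were put in bins by the percent of UMIs from the 4 globin genes, and the other genes were read in non-globin CPM. The bin under 5% held 3 barcodes, that of 5 to 50% 34, that of 50 to 90% 105 and that over 90% 83. The median number of genes detected fell from 4631 to 2719, 768 and 435 along these bins, and the median of UMIs outside the globins fell from 28307 to 11231, 2011 and 1189. AHSP stood at 7513, 16674, 38237 and 31158 non-globin CPM. AHSP chose these barcodes by its share of all UMIs, and barcodes rich in globin with less AHSP fell in the globin-rich class (117 of its 174 barcodes had over 50% globin), so nothing is read from its course. ALAS2 went from 190 to 1178, 7165 and 20620 non-globin CPM and TMCC2 from 22.4 to 174, 3666 and 13882, both highest in the last bin. In CPM of all UMIs ALAS2 was at 184, 864, 1364 and 1521, and TMCC2 at 21.6, 127, 698 and 1024. The last step was smaller by that measure, as the non-globin denominator shrinks where the globin share grows.

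Of the genes outside the 7, KLF1, GATA1, SLC4A1, TFRC and the sum of 6 division genes were read by bin, pooled over animals, and each was highest in the bin of 50 to 90%. KLF1, GATA1, SLC4A1 and TFRC were not compared within animals, so small steps between their last bins are not read. In the last bin 28 of 83 barcodes came from CF replicate 1 at 80 days. The erythroid factor KLF1 was at 537, 810, 1274 and 965 non-globin CPM and GATA1 at 325, 410, 505 and 448. SLC4A1, the anion exchanger of the red cell membrane, was at 0, 169, 680 and 557 non-globin CPM. TFRC, the transferrin receptor through which red cell precursors take up iron, peaked in the bin of 50 to 90% at 1887 non-globin CPM and was at 707 over 90%. The 6 division genes (MKI67, TOP2A, CDK1, BIRC5, AURKA and CDC20) summed to 739, 1741, 3090 and 29.9 non-globin CPM, with 868 UMIs in the third bin and 3 in the last.

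Animals could be compared with themselves between the last 2 bins where both held at least 3 barcodes. In non-globin CPM, ALAS2 was higher over 90% than between 50 and 90% in 8 of these 8 animals. TMCC2 was higher in 7 of 8 (not in WT replicate 1 at 80 days). The division genes were higher in 0 of 8, and were at 0 in both bins of WT replicate 1 at 80 days. The bins were set after the values were seen and rest on the globin genes, in barcodes that AHSP chose, so no test was made. In the globin-rich class AHSP was at 1099 non-globin CPM and 73 of the 174 barcodes had 0 AHSP UMIs, which its definition favours, while ALAS2 (3559) and TMCC2 (2379) stood at levels between the second and the third bin. Its barcodes had a median of 323 genes, and 26 of them also carried markers of another cell type.

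Pathway genes were set beside the 7 in AHSP-high against remaining barcodes of 9 animals with at least 10 AHSP-high barcodes, as log2 ratios of non-globin CPM with 20 added. Of 7 further heme synthesis genes 6 were at least 2-fold higher (FECH 5.50, UROD 4.79, CPOX 4.72), and ALAS1, the housekeeping form of the ALAS2 enzyme, was lower at -0.75. Of 15 transport and breakdown genes 8 were at least 2-fold higher, including the biliverdin reductase BLVRB (6.68), TFRC (4.74) and the mitochondrial iron carrier SLC25A37 (4.56), while the heme oxygenases HMOX1 (-1.14) and HMOX2 (-1.12) were at least 2-fold lower. All 11 red cell membrane genes (RHAG 5.30, EPB41 5.08, EPB42 5.06), 7 of 8 erythroid factors and 6 of 7 late red cell genes (HEMGN 7.01, XPO7 6.85, TRIM58 4.87) were higher by that measure. The 8.56% of all genes with at least 1 CPM that were 2-fold higher are the background of these counts, and the values describe how the barcodes were chosen as much as what they hold. Among the 7 genes the ratios ran from 7.39 (TMCC2) through 8.27 (ALAS2) and 10.15 (AHSP) to 14.80 (LOC101106199).

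Per AHSP-high barcode, levels could be compared in 9 animals, since only 3 animals had the 20 such barcodes first asked for and 10 were asked for instead. In CPM of all UMIs LOC101106199 was at 438603 ± 24633 in WT and HZ at 80 days (n = 3), 350133 ± 82062 in CF at 80 days (n = 3) and 281004 ± 8115 in WT at 120 days (n = 2). AHSP, which set the class and was not tested, stood at 3754 ± 667, 6818 ± 1197 and 7701 ± 1086 CPM. ALAS2 had 1396 ± 223, 1361 ± 190 and 971 ± 112 CPM and TMCC2 871 ± 289, 690 ± 43.0 and 540 ± 149 CPM. The ninth animal, CF replicate 1 at 120 days, was the only one of its group with enough barcodes, and had 313900 CPM of LOC101106199, 5963 of AHSP, 1142 of ALAS2, 669 of TMCC2 and 30411 of LOC101105437.

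Between CF and WT with HZ at 80 days 0 of 6 genes were called in these barcodes by edgeR, where 0.0943% of 2121 genes were called. At an unadjusted p under 0.05 it was 1 of 6 (14% of these genes), and by DESeq2 0 of 6 (0.802%). Between WT at 120 days and WT with HZ at 80 days edgeR called 0 of 6 and DESeq2 4 of 6, where 0.0471% and 4.76% of the same genes were called. In edgeR 5 of 6 had an unadjusted p under 0.05, as did 20.2% of these genes. edgeR's scaling shifted these 2 differences by -1.42 and -1.56 against total UMIs, a shift as large as many of the fitted values. LOC101105437 was at 152 ± 135 CPM at 80 days (n = 3) and 23134 ± 3137 CPM at 120 days (n = 2), a log2 difference of 5.58 (SE 1.66, edgeR adjusted p = 0.130). That gap is one of the AHSP-high class, since globin-rich barcodes held 94.4% of the LOC101105437 UMIs of WT and HZ at 80 days. In globin-rich barcodes its level was 13117 CPM in HZ replicate 4, 7496 in WT replicate 1, 19.4 in HZ replicate 2 and 32.7 in WT replicate 3 at 80 days, beside 9776, 18542 and 15234 CPM in WT at 120 days.

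**Figure D4:**
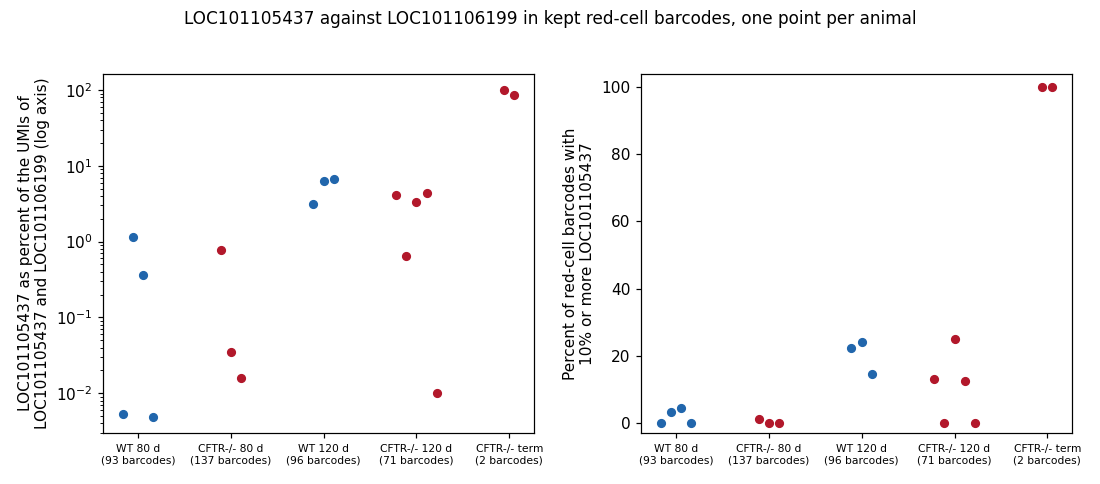
LOC101105437 as a percent of LOC101105437 plus LOC101106199 UMIs in kept AHSP-high and globin-rich barcodes (left, y axis on a log scale) and percent of these barcodes in which it makes up 10% or more of the pair (right) for each animal with such barcodes (points) by group (x axes). Values on the left are at most 1.16% at 80 days, 3.16 to 6.66% in WT at 120 days, and 100 and 85.6% in the 2 CF lambs with 1 barcode each.

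The makeup of the pair LOC101106199 and LOC101105437 differed with age. In the AHSP-high and globin-rich barcodes together, LOC101105437 made up 0.364% of the sum of both in WT replicate 1, 0.00489% in WT replicate 3, 0.00527% in HZ replicate 2 and 1.16% in HZ replicate 4 at 80 days (0.383 ± 0.544, n = 4). The CF fetuses of that age had 0.771, 0.0346 and 0.0157%. All 3 WT fetuses at 120 days lay above all 7 fetuses of 80 days, with 3.16, 6.29 and 6.66% (5.37 ± 1.92, n = 3). The CF fetuses at 120 days spread from 0.0100 to 4.35%, with 4.07% in replicate 1, 0.650% in replicate 2, 3.31% in replicate 4 and 4.35% in replicate 5, so that replicates 2 and 6 lay within the range of the 80-day fetuses and the other 3 above it. Over all deposited barcodes replicates 2 and 6 stood at 1.40 and 2.51%, and all 5 CF fetuses with such barcodes lay above the highest fetus of 80 days (1.19%, HZ replicate 2). In AHSP-high barcodes alone WT replicate 1 at 120 days (0.362%, 1 barcode) lay below CF replicate 1 at 80 days (0.923%). No test was made, because the pattern was noticed in these values.

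The makeup also differed between barcodes of 1 animal. A share of at least 10% was reached by 2 of 93 barcodes in WT and HZ and 1 of 137 in CF at 80 days, and by 17 of 96 (17.7%) in WT and 7 of 71 (9.86%) in CF at 120 days. The highest was 97.8% in a barcode of WT replicate 2 at 120 days, where the pool of its 25 barcodes stood at 6.29%. At term 2 kept red barcodes were left, a globin-rich one of CF replicate 1 with 2153 LOC101105437 UMIs and 0 of LOC101106199, and an AHSP-high one of CF replicate 3 with 1001 and 168. Among barcodes that the filters dropped, 2 of WT replicate 2 at term had 311 LOC101105437 UMIs beside 37 of LOC101106199 and 385 beside 0. Of CF replicates 1 and 2 at term 1 dropped barcode each had 649 beside 396 (62.1%) and 334 beside 0. The term values thus rest on 6 barcodes in 4 lambs. Outside these classes, 1 remaining barcode of WT replicate 2 at term held 1155 LOC101105437 UMIs and 0 of LOC101106199.

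The sums of 2 pairs of rows were close in size in most animals. In AHSP-high barcodes of animals with at least 5 of them, HBM plus LOC101108797 divided by LOC101106199 plus LOC101105437 was 0.853 to 1.09. In globin-rich barcodes it was 0.853 to 1.27 by the same limit, highest in CF replicate 2 at 120 days with 6 barcodes, and 0.591 in the single one of CF replicate 1 at term. The product of LOC101105437 is not named here, so the ratio is one of rows and not of chains. LOC101108797 made up 46.8 to 49.8% of globin UMIs in the means of WT and HZ at 80 days, CF at 80 days and WT at 120 days. HBM made up 0.419, 0.523 and 0.642% in those groups, a small part in each.

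**Figure D5:**
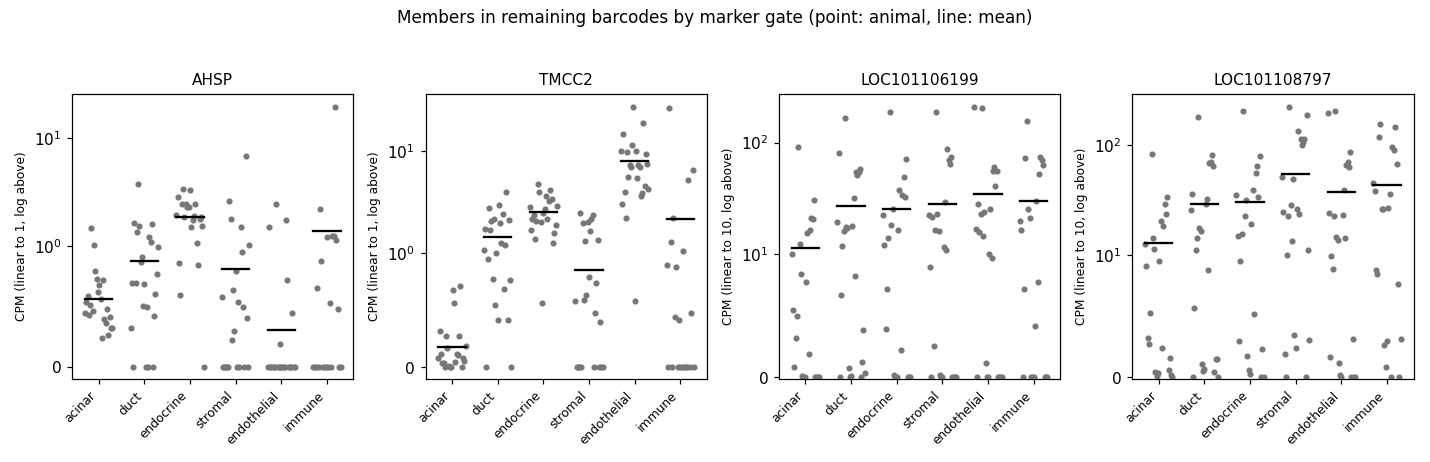
Level of AHSP, TMCC2, LOC101106199 and LOC101108797 in remaining barcodes (y axes, CPM, linear near 0 and on a log scale above) by marker-gated cell type (x axes); points are animals and lines are means over animals, and the Schwann gate is not drawn. Of the 6 gates drawn, TMCC2 has its highest mean in endothelial and AHSP in endocrine barcodes, while LOC101106199 is spread over the cell types.

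Outside red barcodes the genes were present at low levels. Free RNA in the droplets gives such counts, and its part in them was not tested. In remaining barcodes LOC101106199 was at 29.4 ± 16.9 CPM in WT and HZ at 80 days, 71.2 ± 94.6 CPM in CF at 80 days, 21.5 ± 17.9 CPM in WT and 8.25 ± 7.21 CPM in CF at 120 days, and 0.0694 and 0.121 CPM in WT and CF at term. That was 0.000924 to 0.0424% of its level in the red barcodes of the same animal over 14 animals. In CF at 120 days 1 remaining barcode held 363 of its 2185 UMIs in replicate 1, and another 191 of 448 in replicate 2. AHSP varied less, with group means of 0.453 to 1.49 CPM at all ages, and its level in WT at term (0.453 ± 0.171) stood beside that of WT and HZ at 80 days (0.723 ± 0.0954). The AHSP ratio to red barcodes was 0.00585 to 0.0495%, and that of TMCC2 0.0395 to 3.87%.

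In all barcodes that were not AHSP-high, globin-rich ones included, 5 of the 6 genes other than AHSP, which is cut by the class, were called lower at term than at 120 days in WT, where 7.27% of all genes were called by edgeR. In CF 2 of 6 were called (6.58% of all genes), and from 80 to 120 days 0 of 6 in CF (2.63%) and 0 of 6 in WT (0.083%). Between CF and WT 0 of 6 were called at any age, where 0, 0.0387 and 0.963% of all genes were called at 80 days, 120 days and term. In remaining barcodes AHSP and the 4 globin genes are cut by the classes and ALAS2 was too low for the test, so TMCC2 was the only one of the 7 genes tested. It was not called by edgeR between CF and WT at any age, where 0, 0.0388 and 0.963% of 18061 genes were called at 80 days, 120 days and term. Nor was it called from 80 to 120 days in CF (2.62% of all genes) and WT (0.105%), or from 120 days to term in WT (7.13%) and CF (6.48%). Its unadjusted p was under 0.05 in 1 of these 7 comparisons, CF against WT at term (log2 difference 1.68, interval 0.32 to 3.05, edgeR adjusted p = 0.162). That difference was 0.35 without CF replicate 2, at 3.00 CPM. It was -0.47 between males alone, where CF replicate 3, a clone, was the only CF lamb. CF replicate 3 (0.354 CPM) lay below WT replicate 2 (0.382).

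The genes also differed in which remaining barcodes held them. These barcodes were gated by at least 5 UMIs of exactly 1 marker list. TMCC2 was highest in endothelial barcodes in 17 of 23 animals, with 7.97 ± 5.82 CPM from 314 UMIs (n = 23) beside 2.54 ± 1.05 CPM in endocrine (n = 21) and 0.176 ± 0.217 CPM in acinar barcodes (n = 22). In the 3 CF fetuses of 120 days with at least 20 Schwann barcodes it was at 13.9 ± 6.14 CPM there, but from 4 UMIs. Endothelial barcodes still held 9.22 ± 8.58 CPM of TMCC2 at term (n = 7), when red barcodes were nearly gone. AHSP was highest in endocrine barcodes in 14 animals, at 1.85 ± 0.853 CPM (n = 21) beside 0.562 ± 0.278 CPM in acinar barcodes (n = 22), and at term it was at 1.87 ± 1.09 CPM there (n = 6). Median depth was 29461 UMIs in acinar, 11848 in endocrine and 5707 in endothelial barcodes. LOC101106199 averaged 11.3 CPM in acinar and 25.4 to 34.4 CPM in duct, endocrine, stromal, endothelial and immune barcodes, with no gate highest in more than 6 animals.

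LOC101108797 was also seen in stromal barcodes that lacked the other globin rows. It was highest in the stromal gate in 12 of 23 animals, at 54.7 ± 64.5 CPM beside 28.2 ± 44.2 CPM of LOC101106199 in the same barcodes. A set of 151 kept barcodes from 16 animals carried LOC101108797 largely alone. Each had at least 5 of its UMIs, while LOC101106199 plus LOC101105437 came to at most 10% of them. In all that was 2789 UMIs against 23. Those barcodes held 0 HBM and 2 AHSP UMIs, and 88 of them (58.3%) were in the stromal gate, which holds 9.98% of kept barcodes. The stromal ones came from 9 of the 16 animals. They were 45 of 60 in WT replicate 2 at term, 8 of 12, 5 of 7, 6 of 8 and 1 of 1 in WT replicates 1 and 3 and HZ replicates 4 and 2 at 80 days, 6 of 10, 7 of 10 and 9 of 12 in CF replicate 1 at 80 days, 120 days and term, and 1 of 15 in WT replicate 3 at 120 days. In the other 7 animals 0 of 16 such barcodes were stromal. The reverse pattern, the other 2 rows without LOC101108797, was found in 29 barcodes, 6 of them stromal.

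Of the 151 barcodes 60 came from WT replicate 2 at term, 45 of these stromal out of 1041 stromal barcodes of that lamb. In WT replicate 2 the 5 genes that were highest in the 45 barcodes against the 996 other stromal ones, beside LOC101108797 itself, were LOC101120969 (log2 ratio 2.99, seen in 4.44% of the 45), HSPB8 (2.70), POSTN (2.63), SEMA3C (2.55) and FBN1 (2.44). The 5 lowest were APOE (-6.22), APOD (-5.59), TPM2 (-4.54), ACTA2 (-4.16) and CXCL8 (-3.70). The stromal markers COL1A2, PDGFRA, DCN, LUM and COL6A3 were at 0.55, 0.38, 0.15, 0.04 and -0.66. All these log2 ratios were taken of CPM with 20 added, and their order depends on that offset. The 45 barcodes had a median depth of 7136 UMIs beside 4098 in the others. These barcodes were picked after their values were seen, and the values are a description of 1 lamb.

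Over the 23 animals, the genes whose level in all kept barcodes was most like the sum of the 7 were, beside its own parts, UNC119 and HPCA (Pearson r of 0.914 each over log2(CPM + 1)), DUSP26 (0.878), RPS16 (0.875), KCNB2 (0.873), C3H12orf75 (0.872), LOC101114469 (0.871), SCML4 (0.870), C3H2orf40 (0.869) and RAB9B (0.868), out of 13571 genes. Of the 7 genes LOC101108797 had an r of 0.997, LOC101106199 0.980, HBM 0.939, AHSP 0.913 and ALAS2 0.901. TMCC2 came at 0.751, rank 403, and LOC101105437 at 0.523, rank 3409. The animals share age groups, depth and total UMIs as their denominator, so these values carry no test.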

How the data were processed

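Single-cell suspensions of sheep pancreas were profiled in 26 libraries of 23 animals. Per the labels and methods, the authors ran Cell Ranger 3.1.0 on Oar_v4.0 (oviAri4) and deposited raw UMI counts per gene and barcode, without normalization. The members and gene lists were chosen with earlier results of these data known. Libraries A and B of 1 animal were added, and the animal was the replicate. Barcodes with over 200 and below 6000 genes and under 25% MT- UMIs were kept, and doublets were not called (5 AHSP-high barcodes also passed the gate of another cell type). Counts summed per animal were tested with edgeR 4.0.16 in R 4.3.3 (filterByExpr, TMM, glmQLFit, glmQLFTest, 1 fit over 6 groups of age by genotype, Benjamini-Hochberg adjustment, threshold 0.05). DESeq2 1.42.0, other filters, scalings and barcode classes and leaving out each animal were alternatives. Shares were tested by exact permutation over animals (scipy 1.17.1), with 95% Wilson intervals and a floor of 3 counts, which cover counting error only. Every member, and the genes of the fixed pathway lists by counts with the 3 of largest fold, were named, and the 10 genes most like the summed members; 2 genes of the lists are not reported here and were left out of every list count, median and sum. A planned fit of animals with at least 20 AHSP-high barcodes could not be made (3 animals), so 10 was used. On simulated data with 200 genes changed by 2 on the log2 scale, 52.0 to 67.5% were recovered, with 0.909 to 8.40% false calls. The changed genes were drawn at random from all genes that passed the filter, so these rates do not give the recovery of the members. Donor numbers did not pair the animals (correlations of deviations -0.381 to 0.324 over 6329 genes). p-values measure the spread between these animals.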

Additional observations from a re-analysis of the deposited data

Results flagged for a closer look

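WT replicate 2 at term, the library with the most UMIs, stood far above the other 3 WT lambs in 4 genes. In all kept barcodes, which at term in WT are the same as the remaining barcodes, AHSP was at 0.708 CPM beside a median of 0.365 in the others, HBM at 0.154 beside 0.0122, LOC101108797 at 17.5 beside 0.414 and LOC101105437 at 7.35 beside 0.0351. A single remaining barcode of that lamb, with 60934 UMIs in all, held 1342 LOC101108797, 1155 LOC101105437, 37 AHSP and 21 HBM UMIs.

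TMCC2 in CF replicate 3 at 120 days was at 8.17 CPM, beside a median of 1.39 CPM in all kept and 0.808 CPM in remaining barcodes of the other 5 fetuses, in the library with the fewest UMIs. AHSP in remaining barcodes of HZ replicate 2 at 80 days was the lowest of its group at 0.581 CPM, beside a median of 0.772. In 46 groups of 4 to 6 animals 11 such outlying values were found, where chance gives 2.3, but the layers share their values and are not independent.

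Among barcodes that the filters dropped, 285 were globin-rich (0.950% of 29991), 282 of them at or below 200 genes, and 4 were AHSP-high. The filter on genes per barcode therefore removed more globin-rich barcodes than the 174 that were kept.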

How the results depend on the processing

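Of the fold changes of single genes under other settings, 406 kept direction and side of the threshold, 30 lost and 11 gained a call, and 10 reversed. With the AHSP limit at 3 UMIs the log2 difference of LOC101105437 in AHSP-high barcodes between CF and WT at 80 days was -1.02, and scaled to total UMIs ALAS2 had 0.0069 there and HBM 0.11 from 80 to 120 days in WT. Without CF replicate 1 at 80 days the CF difference at 80 days reversed in all kept barcodes for TMCC2 (-0.53), LOC101105437 (-4.66), LOC101106199 (-0.97), HBM (-0.67), LOC101108797 (-1.15) and ALAS2 (-0.60), and in AHSP-high barcodes for LOC101105437 (-2.91). The share of AHSP-high barcodes reversed between CF and WT at term with at least 20 AHSP UMIs (-0.00262 percentage points), and from 80 to 120 days in WT without WT replicate 1 at 120 days (0.113).

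Members called from 80 to 120 days in CF, 3 in all kept barcodes, were 6 by DESeq2 and with total UMIs, 1 without HZ animals and with all deposited barcodes, and 0 with the 2 groups alone. Over all genes the calls went from 506 to 1605 by DESeq2, 161 without HZ animals and 0 with the 2 groups. Scaling to total UMIs moved the median log2 difference of all genes to -0.65 there, so that count is relative to this shift. In barcodes that are not AHSP-high the members called were 0 (476 over all genes), but 2 by DESeq2 (1572) and 4 with total UMIs. From 120 days to term in CF the 3 became 5 by DESeq2 and 0 with the 2 groups. In barcodes not AHSP-high the 2 became 4 by DESeq2 and with all deposited barcodes and 0 with the 2 groups. In WT the 6 became 2 with the 2 groups, and the 5 in barcodes not AHSP-high became 1 with the 2 groups and 3 in barcodes with 0 AHSP UMIs. TMCC2 in remaining barcodes was called in 0 of 19 to 22 settings per comparison, but its direction turned in several. Between CF and WT at term it was -0.47 between males alone (-0.23 in all kept barcodes), with CF replicate 3, a clone, as the only CF lamb. With a globin limit of 20% it was -0.27 between CF and WT at 120 days and 0.041 from 80 to 120 days in WT. From 120 days to term in CF it was -0.42 with total UMIs. In AHSP-high barcodes the 0 between CF and WT at 80 days became 1 with no gene filter or total UMIs, and the 0 from 80 to 120 days in WT became 4 by DESeq2, 2 with the 2 groups, and 1 with no filter or total UMIs. The cause of these changes was not tested. Under other settings the number of all genes called moved in 126 cases and stayed close in 142. The counts of members are therefore not results about the members alone.

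With a replicate block on donor numbers, which do not pair the animals, members called from 80 to 120 days in CF went from 3 to 0, and from 80 to 120 days in AHSP-high barcodes of WT from 0 to 1. The block turned TMCC2 in remaining barcodes of CF to 0.12 from 80 to 120 days and to -0.18 from 120 days to term.

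Leaving out each animal in turn gave 0 to 5 calls from 80 to 120 days in CF, 1 to 5 from 120 days to term in CF and 6 to 7 in WT in all kept barcodes. In barcodes not AHSP-high these ranges were 0 to 2, 1 to 4 and 3 to 5, and the count was 0 in every other comparison of both. Calls over all genes ranged in the same order from 39 to 2560, 507 to 2100 and 364 to 1954 in all kept barcodes. In barcodes not AHSP-high they ranged from 36 to 2537, 512 to 2092 and 340 to 1923. The log2 difference between CF and WT at 80 days ranged in all kept barcodes from -0.53 to 1.35 for TMCC2, -4.66 to 3.82 for LOC101105437, -0.97 to 1.54 for LOC101106199, -0.67 to 1.99 for HBM, -1.15 to 1.49 for LOC101108797 and -0.60 to 1.69 for ALAS2, and in AHSP-high barcodes from -2.91 to 3.39 for LOC101105437. For TMCC2 in remaining barcodes it ranged from -0.088 to 0.70 between CF and WT at 120 days, from -0.72 to 0.11 from 80 to 120 days in CF and from -1.03 to 0.90 from 120 days to term in CF. The difference in AHSP-high share ranged from -0.324 to 0.113 from 80 to 120 days in WT, from 0.0770 to 1.13 between CF and WT at 80 days and from -0.578 to -0.141 at 120 days. In globin-rich barcodes alone the mean share of LOC101105437 in the pair was 1.33% in WT and HZ at 80 days. In AHSP-high barcodes alone it was 0.0270%, beside 0.383% in both classes together. Over all genes DESeq2 called more than edgeR, 2403 beside 1318 from 120 days to term in WT, 2308 beside 1193 in CF, 1605 beside 506 from 80 to 120 days in CF, 335 beside 14 in WT, and between CF and WT 129 beside 4, 45 beside 7 and 1248 beside 171. The WT term values of LOC101106199, HBM and ALAS2 rest on 25, 27 and 22 UMIs, in libraries of 34477102 to 171256169 UMIs.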
